A study of Mus musculus with 8 samples.

Results

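Creatine kinases and the subunits of AMP-activated protein kinase (AMPK) are the energy-buffering and energy-sensing enzymes of the heart, and 10 genes of these enzymes and of creatine uptake were followed here in ventricular mRNA of tumor-bearing mice. The genes were chosen by symbol: 3 creatine kinases (Ckm, Ckmt2 and Ckb), the creatine transporter Slc6a8, and 6 genes of AMPK subunits (Prkaa1, Prkaa2, Prkab1, Prkab2, Prkag1 and Prkag2). They are 10 of the 43346 genes in the count table, each symbol belongs to a single gene ID, and all 10 passed the filter on low counts that left 16111 genes for testing. The study asked how a growing lung tumor alters the heart. The animals were 8 male C57BL/6 mice without any engineered allele in their labels, of which 4 received 1000000 LLC1 cells, a mouse line from the Lewis lung carcinoma, under the skin of the left flank at 7 weeks of age, and the other 4 received only the PBS in which such cells are suspended. All 8 hearts were taken 14 days after the injection, and RNA of the ventricles was sequenced. Mice are named by injection and replicate code (LLC1 1-2, 1-3, 1-5 and 2-2; PBS 1-1, 1-3, 2-1 and 2-5), and the labels do not say what the numbers of the code stand for.

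Creatine kinases move a phosphate group between ATP and creatine. Mitochondrial creatine kinase makes phosphocreatine where ATP is produced, and cytosolic creatine kinase turns it back into ATP at the myofibrils and ion pumps, so that the pair works as a store and a shuttle of energy in cardiomyocytes. AMPK is a complex of a catalytic alpha, a scaffolding beta and a nucleotide-binding gamma subunit, each made from more than one gene. A fall in ATP raises AMP, which binds gamma and switches the kinase on, and AMPK then favours fuel uptake, oxidation and autophagy over synthesis. The activity of both enzymes depends on protein and metabolites, and mRNA levels alone were measured here.

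Total counts per mouse were 15342214 to 19747596 in the LLC1 group and 12480706 to 16192158 in the PBS group. Levels are given as counts per 1000000 counts (CPM) after TMM normalization, which scales libraries so that most genes do not differ. The lowest count of any of the 10 genes in any mouse was 276, for Prkaa1, and the highest 50386, for Ckmt2. The tissue matched its label, since the summed level of 10 cardiomyocyte markers was 116853 to 125355 CPM in LLC1 mice and 106952 to 108857 CPM in PBS mice, while the skeletal muscle markers, 6 in number, summed to 1.36 to 2.45 CPM over all mice, with Myh4 at 0 counts. Of the 4 atrial markers, Nppa held most of the counts and Sln was at 0 to 6 counts per mouse.

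The start regions of the 3 creatine kinase genes and of Prkag1 are shown because 3 of these 4 genes differed between the groups and the fourth, Ckmt2, is the mitochondrial partner of Ckm. Each runs 5′ to 3′ on the strand of its gene, from 250 bases before to 50 bases after the transcription start, and comes from RefSeq on GRCm38.p6 (the assembly of mm10). Capitals mark the letters of any of 6 motifs searched on both strands: the E-box CANNTG, bound by myogenic factors among others, the TATA box (TATAAA or TATATA), the CCAAT box (CCAAT), the site of estrogen-related receptors (TNAAGGTCA), and the MEF2 and CArG sites, which muscle factors bind.
Ckm, chr7:19410844-19411143, plus strand: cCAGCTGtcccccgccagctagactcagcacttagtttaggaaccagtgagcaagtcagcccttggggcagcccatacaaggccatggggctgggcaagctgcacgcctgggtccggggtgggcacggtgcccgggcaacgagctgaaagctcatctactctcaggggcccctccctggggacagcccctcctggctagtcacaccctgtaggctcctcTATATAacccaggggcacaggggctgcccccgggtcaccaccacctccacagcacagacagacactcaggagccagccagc
Ckmt2, chr13:91876836-91877135, minus strand: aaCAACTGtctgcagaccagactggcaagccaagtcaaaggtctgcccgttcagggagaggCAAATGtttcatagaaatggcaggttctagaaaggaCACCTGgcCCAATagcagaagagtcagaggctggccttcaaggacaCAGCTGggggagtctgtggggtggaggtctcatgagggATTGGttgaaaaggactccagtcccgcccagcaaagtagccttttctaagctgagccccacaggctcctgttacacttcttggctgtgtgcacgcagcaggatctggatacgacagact
Ckb, chr12:111672289-111672588, minus strand: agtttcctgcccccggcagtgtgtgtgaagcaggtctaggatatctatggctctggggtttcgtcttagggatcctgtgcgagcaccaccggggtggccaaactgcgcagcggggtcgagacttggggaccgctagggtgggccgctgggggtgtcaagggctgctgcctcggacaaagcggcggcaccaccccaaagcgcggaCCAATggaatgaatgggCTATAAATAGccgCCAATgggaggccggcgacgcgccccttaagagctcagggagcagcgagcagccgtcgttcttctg
Prkag1, chr15:98831459-98831758, minus strand: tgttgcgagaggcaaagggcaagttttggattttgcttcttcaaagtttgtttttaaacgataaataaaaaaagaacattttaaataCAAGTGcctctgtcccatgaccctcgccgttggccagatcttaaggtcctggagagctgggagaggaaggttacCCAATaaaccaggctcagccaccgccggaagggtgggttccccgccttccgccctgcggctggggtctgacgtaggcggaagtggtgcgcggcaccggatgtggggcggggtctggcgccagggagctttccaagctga

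With -1 as the base just before the start, Ckm has an E-box at -249 and a TATA box at -31. Ckb has its TATA box at -28, inside a MEF2 match that begins at -29, and CCAAT boxes at -46 and -16, with no E-box. Ckmt2 has 4 E-boxes, at -248, -189, -153 and -107, and 2 CCAAT boxes, at -145 and -69. Prkag1 has an E-box at -163 and a CCAAT box at -89. Over all 32851 RefSeq promoters of this length, 72.3% hold an E-box, 37.4% a CCAAT box, 17.1% a TATA box, 3.19% a MEF2 site, 1.63% a CArG site and 1.28% the receptor site. The matches are a description of these letters only. RefSeq promoters were matched for 9 of the 10 genes, all but Slc6a8.

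Ckm and Ckb differed in opposite directions, so the likeness of their coding sequences bears on how reads can be assigned. The coding regions, of 1143 bases each, are 75.9% identical, and their longest run of identical bases is 20. That run is shown in capitals with 10 neighbouring bases on each side, from coding position 78 to 117 of both genes, in exon 2 of each, on mm10.
Ckm, chr7:19414215-19414254, plus strand: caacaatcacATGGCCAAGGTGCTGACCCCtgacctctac
Ckb, chr12:111671842-111671881, minus strand: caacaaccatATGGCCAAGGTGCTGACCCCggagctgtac
The reads were 150 bases long, far beyond this run. Between the other relatives the longest shared runs were 17 bases for Ckm and Ckmt2, 15 for Ckb and Ckmt2, 35 for Prkaa1 and Prkaa2, 23 for Prkab1 and Prkab2, and 15 for Prkag1 and Prkag2. No other gene matched a transcript of the 10 at 97% identity over 150 bases, apart from A930016O22Rik with Ckm and B130046B21Rik with Prkag1, which lie on the opposite strand at the same place.

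Levels per length spanned from the most abundant mRNAs of the ventricle to modest ones. On the scale of CPM per 1000 bases of deposited gene length, the mean over 8 mice was 1691 for Ckmt2 and 1672 for Ckm, 59.8 for Prkag1, 41.3 for Slc6a8, 33.1 for Ckb, 22.2 for Prkaa2, 13.0 for Prkab2, 10.9 for Prkab1, 4.48 for Prkaa1 and 3.77 for Prkag2. By mean level per length, Ckmt2 ranked 24th and Ckm 26th among the 16111 genes tested, while Prkag2 ranked 8828th. Most neighbours in this order kept it in all 8 mice. The exceptions are given by group. Ckmt2 was above Ckm in 0 of 4 LLC1 mice (means 1764 against 1841) and in 3 of 4 PBS mice (1618 against 1502), and Slc6a8 was above Ckb in 4 of 4 LLC1 and 2 of 4 PBS mice. Prkab2 was above Prkab1 in 3 of 4 LLC1 and 4 of 4 PBS mice. The 2 heart and muscle isoforms Ckm and Ckmt2 together took 0.434% to 0.531% of all counts of a mouse. The length used changed part of the order: with the length of each gene's lowest-numbered transcript in GENCODE M21, chosen after seeing the data, Ckm (1915) came before Ckmt2 (1691), Prkab1 (16.0) before Prkab2 (13.3), and Prkag2 (7.34) before Prkaa1 (4.48). With that length Slc6a8 was above Ckb in all 8 mice, and Ckm was above Ckmt2 in 4 of 4 LLC1 and 3 of 4 PBS mice.

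**Figure D1:**
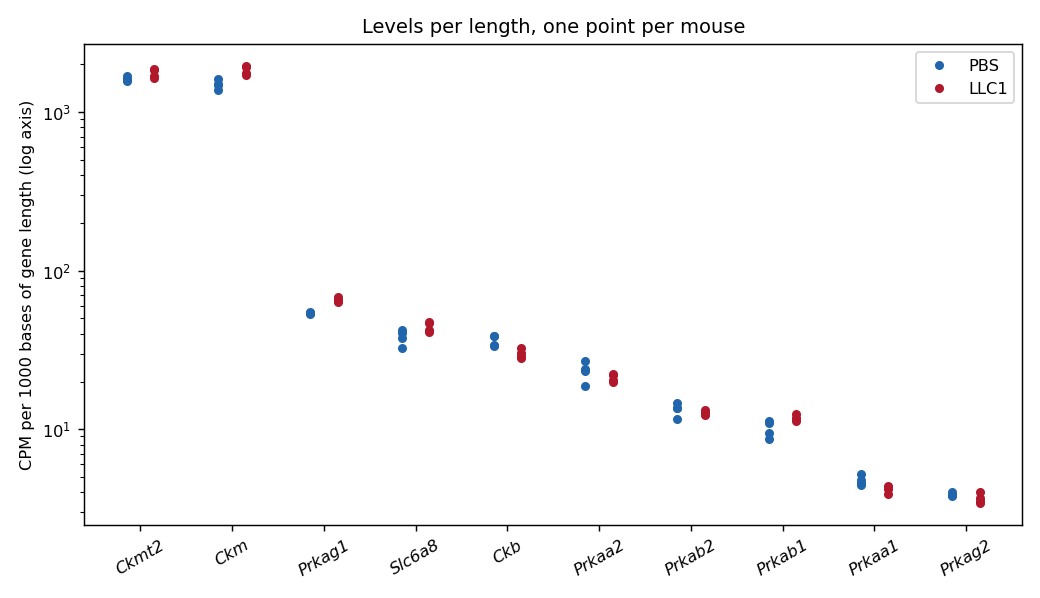
Level of each gene per length (CPM per 1000 bases, log axis), 1 point per mouse, PBS in blue and LLC1 in red, ordered by the mean over 8 mice. Ckmt2 and Ckm stand far above the rest, at means of 1691 and 1672, and Prkag1 leads the AMPK subunits at 59.8.

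Between the groups, Ckm and Prkag1 rose and Ckb fell in LLC1 mice. With an FDR threshold of 0.05 in the quasi-likelihood test of edgeR, 3 of 10 genes were called, beside 8.73% of all genes tested (4.12% higher and 4.61% lower). For 5 of the 10 genes every LLC1 mouse lay on one side of every PBS mouse, which held for 17.2% of all genes. All differences were small: the largest absolute log2 fold change of the 10 was 0.29, and their median absolute value was 0.20 against 0.15 over all genes tested. In direction the genes were split, with 5 higher and 5 lower, a median log2 fold change of 0.02 (-0.01 over all genes). The ventricle is a mixture of cells, and fewer cells of a type or less RNA per cell cannot be told apart in such samples. Markers moved with the groups: the cardiomyocyte sum given above did not overlap, with 1 of 10 markers called (Myh6, higher), while 2 of 6 endothelial, 3 of 6 fibroblast and 2 of 5 macrophage markers were called, all lower. Of the cardiomyocyte markers DESeq2 called 3 and limma-voom 2, and 5 had an unadjusted p under 0.05, beside 25.5% of all genes tested. For the endothelial, fibroblast and macrophage markers DESeq2 called 3, 3 and 2. The endothelial markers summed to 728 to 840 CPM in LLC1 and 824 to 1084 CPM in PBS mice, the fibroblast markers to 838 to 917 and 925 to 1308 CPM, and the macrophage markers to 216 to 268 and 241 to 360 CPM. The 6 smooth muscle and pericyte markers summed to 784 to 842 CPM in LLC1 and 902 to 1064 CPM in PBS mice, with 0 called by edgeR or limma-voom, 1 by DESeq2 and 3 at an unadjusted p under 0.05 (beside 25.5% of all genes). The 3 atrial markers tested (113 to 339 and 123 to 249 CPM), 1 skeletal muscle marker, 4 of Schwann cells and neurons (8.92 to 11.8 and 7.15 to 10.2 CPM) and 3 of erythroid cells (901 to 3253 and 979 to 1956 CPM) had 0 calls by any of these tools, with 1 atrial and 1 Schwann cell or neuron marker at an unadjusted p under 0.05 (again beside 25.5%). What part these have in the values below was not tested.

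**Figure D2:**
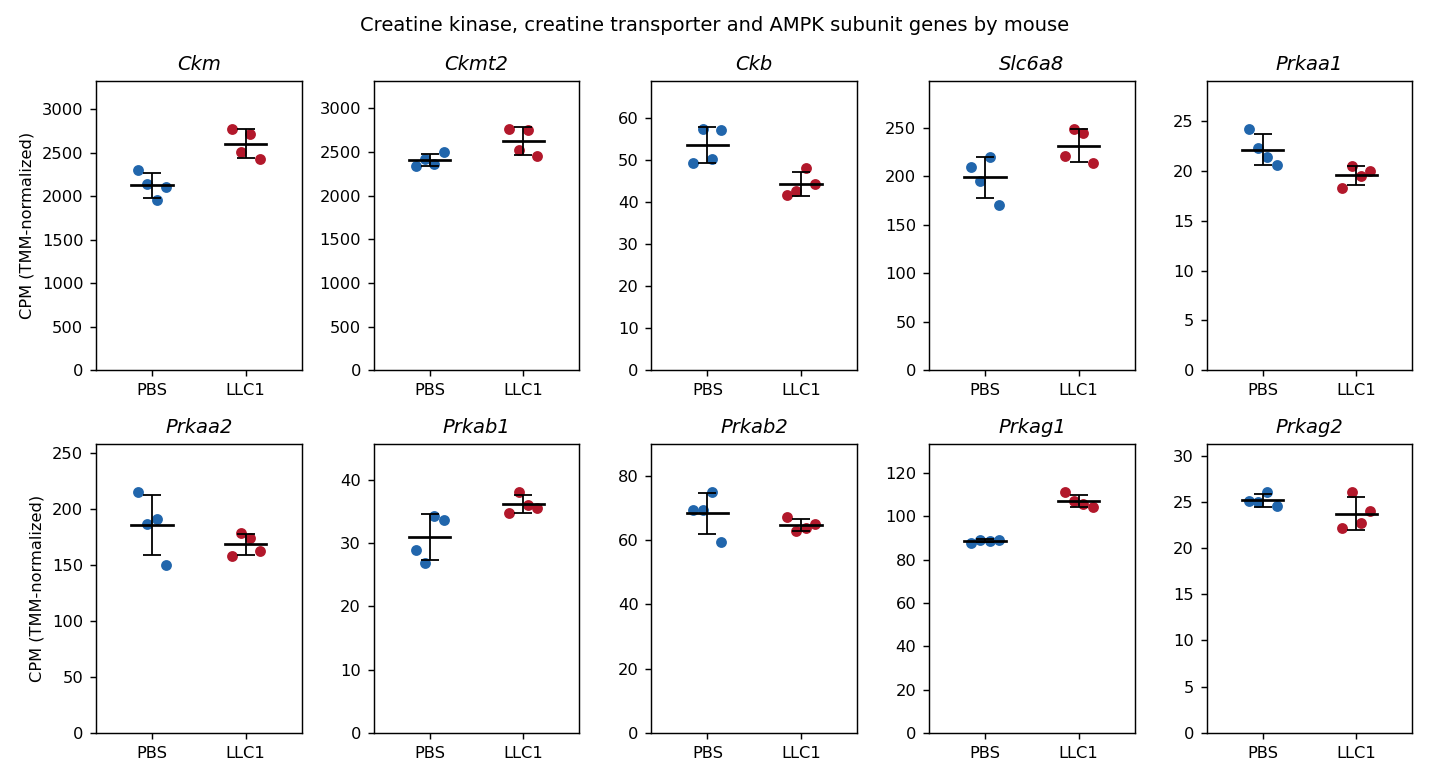
TMM-normalized CPM of each gene from 0, 1 point per mouse, PBS in blue and LLC1 in red, with the group mean and SD (n = 4). All 4 LLC1 mice lie above all 4 PBS mice for Ckm, Prkag1 and Prkab1, and below them for Ckb and Prkaa1.

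Ckm encodes the muscle cytosolic creatine kinase (ENSMUSG00000030399, mm10 chromosome 7, 19411094 to 19421583). Its level was 2771, 2507, 2714 and 2431 CPM in LLC1 mice 1-2, 1-3, 1-5 and 2-2, and 2306, 2136, 1954 and 2106 CPM in PBS mice 1-1, 1-3, 2-1 and 2-5. The lowest LLC1 mouse lay above the highest PBS mouse. The group means were 2606 ± 163 CPM and 2125 ± 144 CPM (SD, n = 4 each), a 1.23-fold increase (log2 fold change 0.29, standard error 0.07, edgeR FDR = 0.0285). The exact permutation test over 70 arrangements gave p = 0.0286, 2-sided, the smallest p that 4 mice against 4 allow. This unadjusted value falls to any gene whose groups do not overlap, called or not. The FDR of Ckm rose to between 0.0645 and 0.0856 without LLC1 1-2, LLC1 1-3, LLC1 1-5, PBS 1-3 or PBS 2-1, at log2 fold changes of 0.25 to 0.31. It was 0.106 with offsets for GC content (0.24), 0.0503 with total counts (0.24) and 0.0732 with libraries scaled by cardiomyocyte markers (0.18).

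The exons of Ckm overlap those of A930016O22Rik on the opposite strand (chromosome 7, 19418812 to 19421417), with 451 bases in common in GENCODE M21. The M21 model of Ckm (2913 exon bases) is not the one counted, which has a deposited length of 1415 bases and another start and end, so the overlap within the counted model is not known. The library kit does not mark strand, so reads of the pair cannot be told apart there. A930016O22Rik held 11220 to 23178 counts per mouse, and its count was 44.2% to 46.8% of that of Ckm in LLC1 mice and 38.2% to 42.8% in PBS mice. It was also higher in LLC1 mice, at 1197 ± 88.0 CPM against 858 ± 98.6 CPM (SD, n = 4 each; log2 fold change 0.48, standard error 0.09, edgeR FDR = 0.00882). With the counts of both genes summed, an alternative chosen after seeing the data, the log2 fold change was 0.35 (edgeR FDR = 0.0172).

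Ckmt2, the sarcomeric mitochondrial creatine kinase (ENSMUSG00000021622, chromosome 13, 91853387 to 91876885), was not called. Its level was 2760, 2522, 2756 and 2448 CPM in the LLC1 mice and 2342, 2416, 2360 and 2500 CPM in the PBS mice, in the order used for Ckm. LLC1 2-2 lay below PBS 2-5, and the other 3 LLC1 mice lay above every PBS mouse. The means were 2622 ± 160 CPM and 2405 ± 71.3 CPM (SD, n = 4 each), a ratio of 1.09 with a 95% interval from its standard error of 0.998 to 1.19 (edgeR FDR = 0.254). Its antisense neighbour 1700119I11Rik shares 84 bases of exon (5.65%) and held 10.4% to 11.95% of the Ckmt2 count in every mouse. Its log2 fold change of 0.12 was 0.13 with the pair summed (edgeR FDR = 0.220), 0.07 with total counts, 0.05 with offsets for gene length and 0.01 with cardiomyocyte marker scaling, without a call in any.

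Ckb, the brain-type cytosolic creatine kinase, which the heart makes in small amounts (ENSMUSG00000001270, chromosome 12, 111669355 to 111672338), was the member that fell. Its level was 41.7, 42.8, 48.3 and 44.5 CPM in the LLC1 mice and 49.3, 57.4, 50.4 and 57.1 CPM in the PBS mice. The groups did not overlap, although LLC1 1-5 and PBS 1-1 came close to each other. The means were 44.3 ± 2.87 CPM and 53.6 ± 4.30 CPM (SD, n = 4 each), a ratio of 0.827 (log2 fold change -0.27, standard error 0.08, edgeR FDR = 0.0443, exact permutation p = 0.0286). The call rests on most of the mice: leaving out any 1 mouse other than PBS 1-1 (LLC1 1-2, 1-3, 1-5 or 2-2, or PBS 1-3, 2-1 or 2-5) gave an FDR of 0.0522 to 0.128, at log2 fold changes of -0.32 to -0.25. Total counts (-0.33, FDR = 0.0535) and a filter of at least 1 count in any mouse (-0.26, FDR = 0.0630) also ended it. GC content is 61.7% in the longest Ckb transcript, higher than in 98.0% of the genes tested. Across 15951 genes the log2 fold change rose with GC content (Spearman's rho 0.29, a description, since genes are not independent replicates), and with offsets for GC content, chosen after seeing the data, Ckb was at -0.39 (edgeR FDR = 0.00722).

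Slc6a8 carries creatine into the cell, since cardiomyocytes take creatine from the blood (ENSMUSG00000019558, chromosome X, 73673150 to 73682502). Its level was 221, 249, 244 and 214 CPM in the LLC1 mice and 210, 195, 220 and 171 CPM in the PBS mice. Of the LLC1 mice, 3 lay above every PBS mouse and LLC1 2-2 did not. The means were 232 ± 17.2 CPM and 199 ± 21.4 CPM (SD, n = 4 each), and the ratio of 1.17 (95% interval 1.04 to 1.31) did not pass the adjusted test (edgeR FDR = 0.127). Its log2 fold change of 0.22 was 0.13 with GC offsets and 0.11 with cardiomyocyte marker scaling.

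Relative to Ckm, both other creatine kinases were lower in LLC1 mice. The ratio of Ckb to Ckm per length was 0.0144, 0.0164, 0.0170 and 0.0175 in the LLC1 mice and 0.0205, 0.0257, 0.0247 and 0.0260 in the PBS mice, with no overlap. The difference of the mean log2 ratios was -0.57 (standard error 0.10), which is the ratio falling to 0.675 of its PBS value (exact permutation p = 0.0286, 2-sided; 0.0476 after Benjamini-Hochberg adjustment over 5 ratios). Without any 1 LLC1 mouse (1-2, 1-3, 1-5 or 2-2) the adjusted permutation p in the exact test was 0.0714 to 0.0952, at differences of -0.60 to -0.51, and without any 1 PBS mouse it was 0.0357 to 0.0476. A ratio within a library does not depend on how libraries are scaled. Per length, Ckb made up 0.734% to 0.886% of the summed creatine kinase level in LLC1 mice and 1.03% to 1.22% in PBS mice. The ratio of Ckmt2 to Ckm was 0.948, 0.958, 0.967 and 0.959 in the LLC1 mice and 0.967, 1.08, 1.15 and 1.13 in the PBS mice. PBS 1-1 lay next to the LLC1 mice, above the highest of them only in the fourth digit, and the other 3 PBS mice lay well above. The difference of the mean log2 ratios was -0.17 (standard error 0.06, exact permutation p = 0.0286, adjusted p = 0.0476). Without any 1 LLC1 mouse it was -0.18 to -0.17, with an adjusted exact permutation p of 0.0952 in each of the 4 cases. With 3 against 4 mice, as with 4 against 4, the smallest permutation p in the exact test is 0.0286 before adjustment. At least 3 of the 5 ratios must therefore reach it for any to pass. With all mice only Ckb to Ckm, Ckmt2 to Ckm and Prkag1 to Prkag2 reached it, so these calls stand or fall together. In the 4 fits without an LLC1 mouse, the exact permutation p of Ckmt2 to Ckm before adjustment was 0.0571. That of Ckb to Ckm was 0.0571 without LLC1 1-2 and 0.0286 without each of the other LLC1 mice. Whether reads from the overlap with A930016O22Rik were counted for Ckm, and so enter both differences, is not known.

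**Figure D3:**
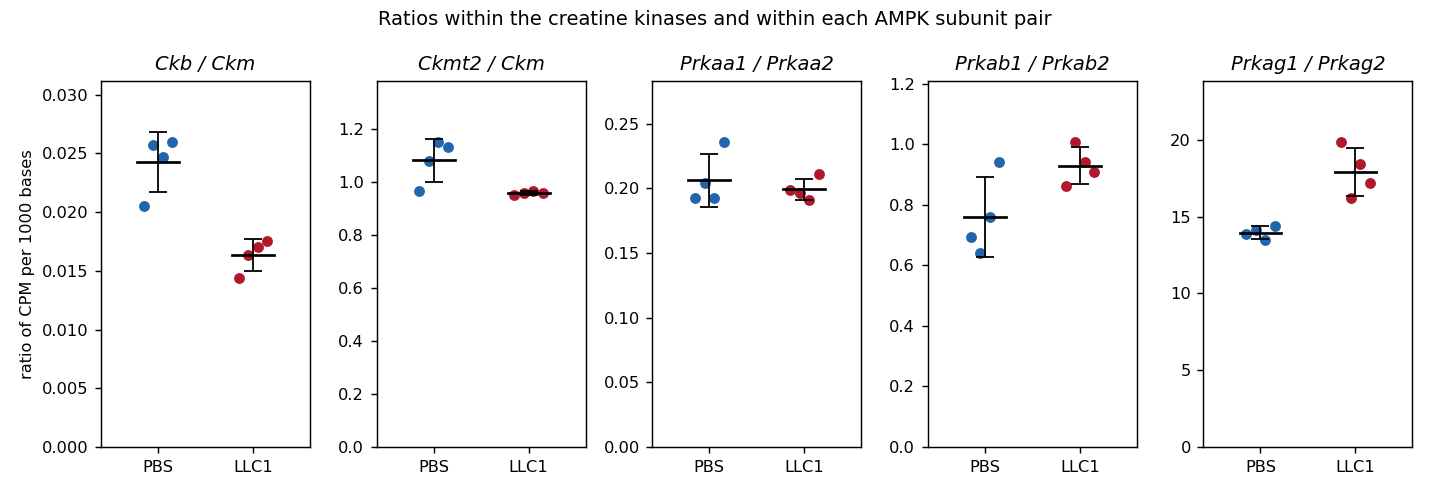
Ratios of CPM per 1000 bases within each mouse, from 0, PBS in blue and LLC1 in red, with the group mean and SD (n = 4). The groups do not overlap for Ckb over Ckm, Ckmt2 over Ckm and Prkag1 over Prkag2, and overlap for the alpha and beta pairs.

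Neither catalytic subunit of AMPK passed the adjusted test, and both had log2 fold changes below 0 (-0.14 for Prkaa2 and -0.17 for Prkaa1). Prkaa2 encodes alpha2, the main catalytic subunit of heart and skeletal muscle (ENSMUSG00000028518, chromosome 4, 105029874 to 105109890). It had 158, 178, 174 and 163 CPM in the LLC1 mice and 215, 187, 191 and 149.5 CPM in the PBS mice. PBS 2-5 was the lowest of all 8 mice and the other 3 PBS mice the highest. The means were 168 ± 9.65 CPM and 186 ± 27.0 CPM (SD, n = 4 each), a ratio of 0.907 with an interval of 0.795 to 1.03 (edgeR FDR = 0.388). Its log2 fold change was -0.06 without PBS 1-1 (FDR = 0.683) and -0.24 without PBS 2-5 (FDR = 0.0565), and -0.25 with cardiomyocyte marker scaling (FDR = 0.0820). Prkaa1 encodes alpha1, the widely expressed form (ENSMUSG00000050697, chromosome 15, 5143861 to 5181899). Its level was 18.3, 20.5, 19.5 and 20.0 CPM in the LLC1 mice and 24.2, 22.3, 21.4 and 20.6 CPM in the PBS mice. The groups did not overlap, with LLC1 1-3 and PBS 2-5 side by side. The means were 19.6 ± 0.959 CPM and 22.1 ± 1.54 CPM (SD, n = 4 each), a ratio of 0.886 with an interval of 0.796 to 0.987 (edgeR FDR = 0.191). The exact permutation p of Prkaa1 was 0.0286, as for the called genes. Scaled by the cardiomyocyte markers in place of TMM, which moved the median of all genes to -0.12, Prkaa1 was at -0.28 (edgeR FDR = 0.0412). Relative to the median Prkaa1 was at -0.16, the same as with TMM, since scaling moves all genes nearly alike.

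A change in the balance of the alpha pair was not detected. Prkaa1 made up 16.1% to 17.4% of the summed alpha level per length in LLC1 mice and 16.1% to 19.1% in PBS mice. The ratio of Prkaa1 to Prkaa2 had a mean of 0.199 ± 0.00826 in LLC1 and 0.206 ± 0.0205 in PBS mice (SD, n = 4 each), a difference of -0.04 on the log2 scale (standard error 0.08, exact permutation p = 0.657). Without PBS 2-5 that difference was 0.02. Both alpha genes are long, at 4655 and 7969 bases, and have low GC content, 40.2% for Prkaa1 and 40.7% for Prkaa2, below which lie 6.21% and 7.59% of the genes tested. Across genes the log2 fold change fell with gene length (Spearman's rho -0.21 over 16111 genes, also a description). With length offsets the log2 fold changes of Prkaa1 and Prkaa2 were -0.15 and -0.08, and with GC offsets -0.06 and -0.03, where TMM alone gave -0.17 and -0.14.

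The beta subunits hold the complex together and bind glycogen. Prkab1, beta1 (ENSMUSG00000029513, chromosome 5, 116013586 to 116024508), had 34.7, 38.1, 36.1 and 35.5 CPM in the LLC1 mice and 28.9, 26.8, 34.3 and 33.7 CPM in the PBS mice. Every LLC1 mouse lay above every PBS mouse, the gap between LLC1 1-2 and PBS 2-1 being the narrowest. The means were 36.1 ± 1.42 CPM and 30.9 ± 3.65 CPM (SD, n = 4 each), and the ratio of 1.17 (interval 1.04 to 1.31) did not pass the adjusted test (edgeR FDR = 0.134), with a log2 fold change of 0.22, or 0.11 with cardiomyocyte marker scaling. The exact permutation p of Prkab1 was 0.0286, as for the called genes. Prkab2, beta2, which is abundant in muscle (ENSMUSG00000038205, chromosome 3, 97658193 to 97673812), had 67.1, 62.8, 63.7 and 65.0 CPM in the LLC1 mice and 69.3, 69.5, 75.0 and 59.4 CPM in the PBS mice. The LLC1 mice lay within the range of the PBS mice. The means were 64.6 ± 1.86 CPM and 68.3 ± 6.50 CPM (SD, n = 4 each), a ratio of 0.947 with an interval of 0.856 to 1.05 (edgeR FDR = 0.541). Its log2 fold change of -0.08 was -0.15 without PBS 2-5 and -0.03 without PBS 2-1, -0.13 with total counts, -0.19 with cardiomyocyte marker scaling, -0.05 with length offsets and -0.03 with GC offsets, without a call in any.

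The 2 beta genes were close to even per length, with Prkab1 at 46.3% to 50.2% of their sum in LLC1 mice and 39.1% to 48.5% in PBS mice. The ratio of Prkab1 to Prkab2 was 0.861, 1.01, 0.941 and 0.908 in the LLC1 mice and 0.693, 0.641, 0.761 and 0.942 in the PBS mice. The groups overlapped through PBS 2-5. The difference of the mean log2 ratios was 0.30 (standard error 0.13, exact permutation p = 0.114, adjusted p = 0.143). Without PBS 2-5 it was 0.41, with an adjusted permutation p of 0.0357 in the exact test over 35 arrangements, and without any other mouse the adjusted p of the same permutation test was 0.143 to 0.25.

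The gamma subunits sense AMP, ADP and ATP. Prkag1, gamma1, the common form in most tissues (ENSMUSG00000067713, chromosome 15, 98812798 to 98831508), had the lowest FDR of the 10 genes. Its level was 111, 107, 106 and 104 CPM in the LLC1 mice and 87.7, 89.3, 88.7 and 89.1 CPM in the PBS mice. Every LLC1 mouse lay above every PBS mouse, at 1022 to 2076 counts of the gene per mouse. The means were 107 ± 2.96 CPM and 88.7 ± 0.711 CPM (SD, n = 4 each), a 1.21-fold increase (log2 fold change 0.27, standard error 0.05, edgeR FDR = 0.0118, exact permutation p = 0.0286). Prkag1 stayed under an FDR of 0.05 with each mouse left out in turn, at 0.0101 to 0.0459. It did not with libraries scaled to total counts (0.22, FDR = 0.0688) or by cardiomyocyte markers (0.16, FDR = 0.0840).

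Prkag1 too has an antisense neighbour. B130046B21Rik (chromosome 15, 98807032 to 98816077) shares 950 exon bases with Prkag1 in GENCODE M21, whose model (2175 exon bases) also differs from the one counted (1638 bases), and held 668 to 1376 counts per mouse. Its count was 64.6% to 66.3% of that of Prkag1 in LLC1 mice and 65.4% to 66.6% in PBS mice, so the 2 genes kept nearly the same proportion. It was higher in LLC1 mice by a log2 fold change of 0.25 (standard error 0.05, edgeR FDR = 0.0177), at 69.8 ± 1.44 CPM against 58.7 ± 0.916 CPM (SD, n = 4 each). It lost the call with total counts (0.19, FDR = 0.112), with cardiomyocyte marker scaling (0.14, FDR = 0.149) and without LLC1 1-2, LLC1 1-3 or PBS 1-3 (FDR 0.0511 to 0.0629). The sum of the pair had a log2 fold change of 0.26 (edgeR FDR = 0.0128). Which strand the reads came from cannot be told apart with this kit.

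Prkag2, gamma2, known for mutations that cause glycogen storage in the heart (ENSMUSG00000028944, chromosome 5, 24862744 to 25100642), did not follow Prkag1. It had 22.2, 26.1, 22.7 and 24.0 CPM in the LLC1 mice and 25.0, 25.0, 26.1 and 24.5 CPM in the PBS mice. LLC1 1-3 was among the highest and the other 3 LLC1 mice were below every PBS mouse. The means were 23.7 ± 1.74 CPM and 25.2 ± 0.664 CPM (SD, n = 4 each), a ratio of 0.944 with an interval of 0.853 to 1.04 (edgeR FDR = 0.516). Its log2 fold change of -0.08 was -0.05 without LLC1 1-2 and -0.13 without LLC1 1-3, -0.14 with total counts, -0.19 with cardiomyocyte marker scaling and -0.04 with length offsets, without a call in any. Its antisense neighbours are Prkag2os1, at 1 to 4 counts per mouse, and Prkag2os2, at 15 to 34. The ratio of Prkag1 to Prkag2 per length was 19.9, 16.2, 18.4 and 17.2 in the LLC1 mice and 13.9, 14.2, 13.5 and 14.4 in the PBS mice, with no overlap. The size of this ratio depends on the length used, which does not affect the group difference. With the lowest-numbered transcripts the mean levels over 8 mice were 59.3 for Prkag1 and 7.34 for Prkag2. The difference of the mean log2 ratios was 0.36 (standard error 0.07, exact permutation p = 0.0286, adjusted p = 0.0476). Without any 1 LLC1 mouse (1-2, 1-3, 1-5 or 2-2) the adjusted exact permutation p was 0.0714 to 0.0952, at differences of 0.31 to 0.40, while the p before adjustment stayed at its smallest possible value of 0.0286. The third gamma gene, Prkag3, had 4.48 ± 0.353 CPM in LLC1 and 5.43 ± 0.859 CPM in PBS mice (SD, n = 4 each; edgeR FDR = 0.257).

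**Figure D4:**
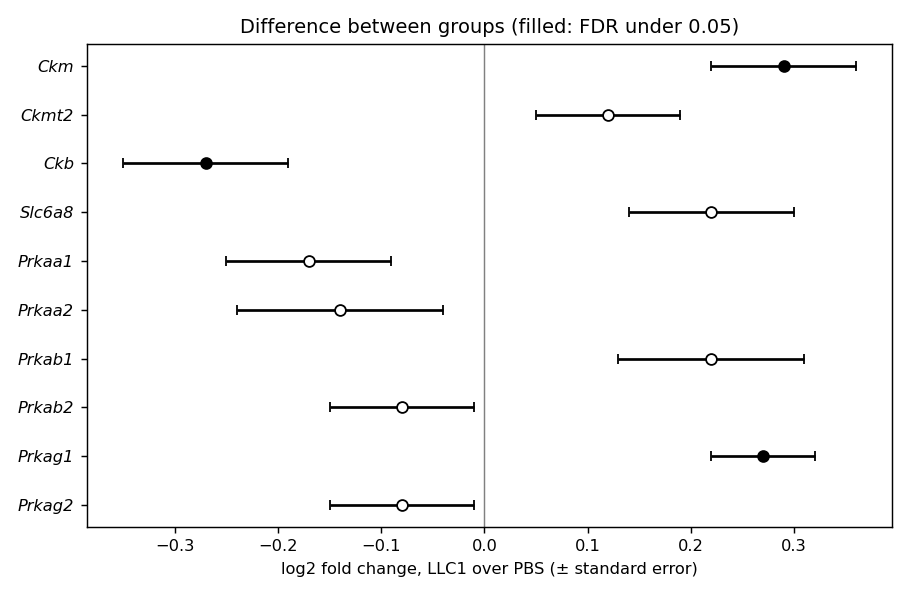
Log2 fold change of each gene, LLC1 over PBS, with its standard error from edgeR, filled where the FDR is under 0.05. Ckm at 0.29 and Prkag1 at 0.27 lie to the right of 0 and Ckb at -0.27 to the left, and the 7 open points did not pass the adjusted test.

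Of the 3 genes of creatine synthesis and export, all tested, 1 was called, lower in LLC1 mice (beside 4.61% of all genes tested), with a median log2 fold change of -0.77. DESeq2 called 2 of them and limma-voom 1. Slc16a12, a creatine transporter of the plasma membrane, was the gene that edgeR called, falling from 3.08 ± 0.576 CPM in PBS to 1.78 ± 0.254 CPM in LLC1 mice (SD, n = 4 each; log2 fold change -0.80, standard error 0.19, edgeR FDR = 0.0257). Gatm, the first enzyme of creatine synthesis, was at 2.15 CPM in LLC1 and 3.61 CPM in PBS mice, with an FDR of 0.0612. Ubiquitous mitochondrial creatine kinase, Ckmt1, had 3 to 16 counts per mouse and was not tested. Among 16 genes of adenine nucleotide handling, 14 were tested, and 6 had an unadjusted p under 0.05, beside 25.5% of all genes tested. DESeq2 called 3 and limma-voom 1, while edgeR called 1, lower, again beside 4.61%. That gene was Ampd2, an AMP deaminase, at 8.43 ± 0.987 CPM in LLC1 and 11.4 ± 0.991 CPM in PBS mice (SD, n = 4 each; log2 fold change -0.44, standard error 0.11, edgeR FDR = 0.0304). The median of the list was -0.04. The calls of Slc16a12 and Ampd2 were each lost in 5 of the 8 fits that left out a mouse, with LLC1 1-2, LLC1 1-3, PBS 1-3 and PBS 2-1 common to both, LLC1 2-2 for Slc16a12 (FDR up to 0.0836) and LLC1 1-5 for Ampd2 (FDR up to 0.0988).

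Upstream of AMPK, 3 of 16 genes rose and 1 fell, beside 4.12% higher and 4.61% lower over all genes tested, at a list median of 0.02. Sesn1, a sestrin of the p53 response that acts on AMPK and mTORC1, was at 195 ± 7.50 CPM in LLC1 and 134 ± 7.66 CPM in PBS mice (SD, n = 4 each; log2 fold change 0.54, standard error 0.06, edgeR FDR = 0.000832). Flcn, folliculin, which binds AMPK through its FNIP partners, was at 120 ± 10.3 CPM and 79.3 ± 3.34 CPM (log2 fold change 0.60, standard error 0.07, edgeR FDR = 0.00103). These changes were larger than any among the 10 genes of creatine kinases, creatine transporter and AMPK subunits, and both calls stood in every alternative run. Stk11, the kinase LKB1 that phosphorylates the alpha subunit, was at 123 ± 3.34 CPM and 104 ± 8.28 CPM (log2 fold change 0.24, standard error 0.07, edgeR FDR = 0.0486). It lost the call with GC offsets (0.13), with total counts (0.18), with cardiomyocyte marker scaling (0.13) and without any 1 mouse other than PBS 1-1 or PBS 2-5 (FDR 0.0903 to 0.155). Ppm1f, a phosphatase that can remove the activating phosphate, fell from 66.6 ± 6.29 CPM to 52.2 ± 4.58 CPM (log2 fold change -0.35, standard error 0.08, edgeR FDR = 0.0260), and lost the call without LLC1 1-2, LLC1 1-3, LLC1 1-5 or PBS 1-3 (FDR up to 0.0874).

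Of 18 genes whose proteins AMPK phosphorylates, 6 rose (33.3%), beside 4.12% higher over all genes tested, at a list median of 0.23 against -0.01 over all genes, while DESeq2 called 8 and limma-voom 5. No gene of the list was called lower by edgeR. The 4 with the lowest FDR were Foxo3, Hdac5, Srebf1 and Acacb. Foxo3, a transcription factor of autophagy and muscle wasting genes, was at 138 ± 13.3 CPM in LLC1 and 98.1 ± 8.78 CPM in PBS mice (SD, n = 4 each; log2 fold change 0.49, standard error 0.08, edgeR FDR = 0.00611). Hdac5, a histone deacetylase that restrains MEF2, was at 172 ± 9.04 CPM and 136 ± 2.71 CPM (log2 fold change 0.34, standard error 0.06, edgeR FDR = 0.00701). Srebf1, a regulator of lipid synthesis, was at 49.7 ± 2.26 CPM and 36.4 ± 5.31 CPM (log2 fold change 0.44, standard error 0.10, edgeR FDR = 0.0164). The calls of Foxo3 and Hdac5 stood in every alternative run. Acacb, the acetyl-CoA carboxylase that holds back fatty acid entry into mitochondria, was at 706 ± 62.3 CPM and 561 ± 43.4 CPM (log2 fold change 0.33, standard error 0.08, edgeR FDR = 0.0273). Srebf1 and Acacb lost the call with total counts or cardiomyocyte marker scaling (FDR 0.0686 to 0.136). They also lost it without LLC1 1-3, LLC1 2-2 or PBS 1-3 and, for Acacb, LLC1 1-5 or PBS 2-1 (FDR 0.0513 to 0.0945). These are mRNA levels, and phosphorylation was not measured in these libraries.

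**Figure D5:**
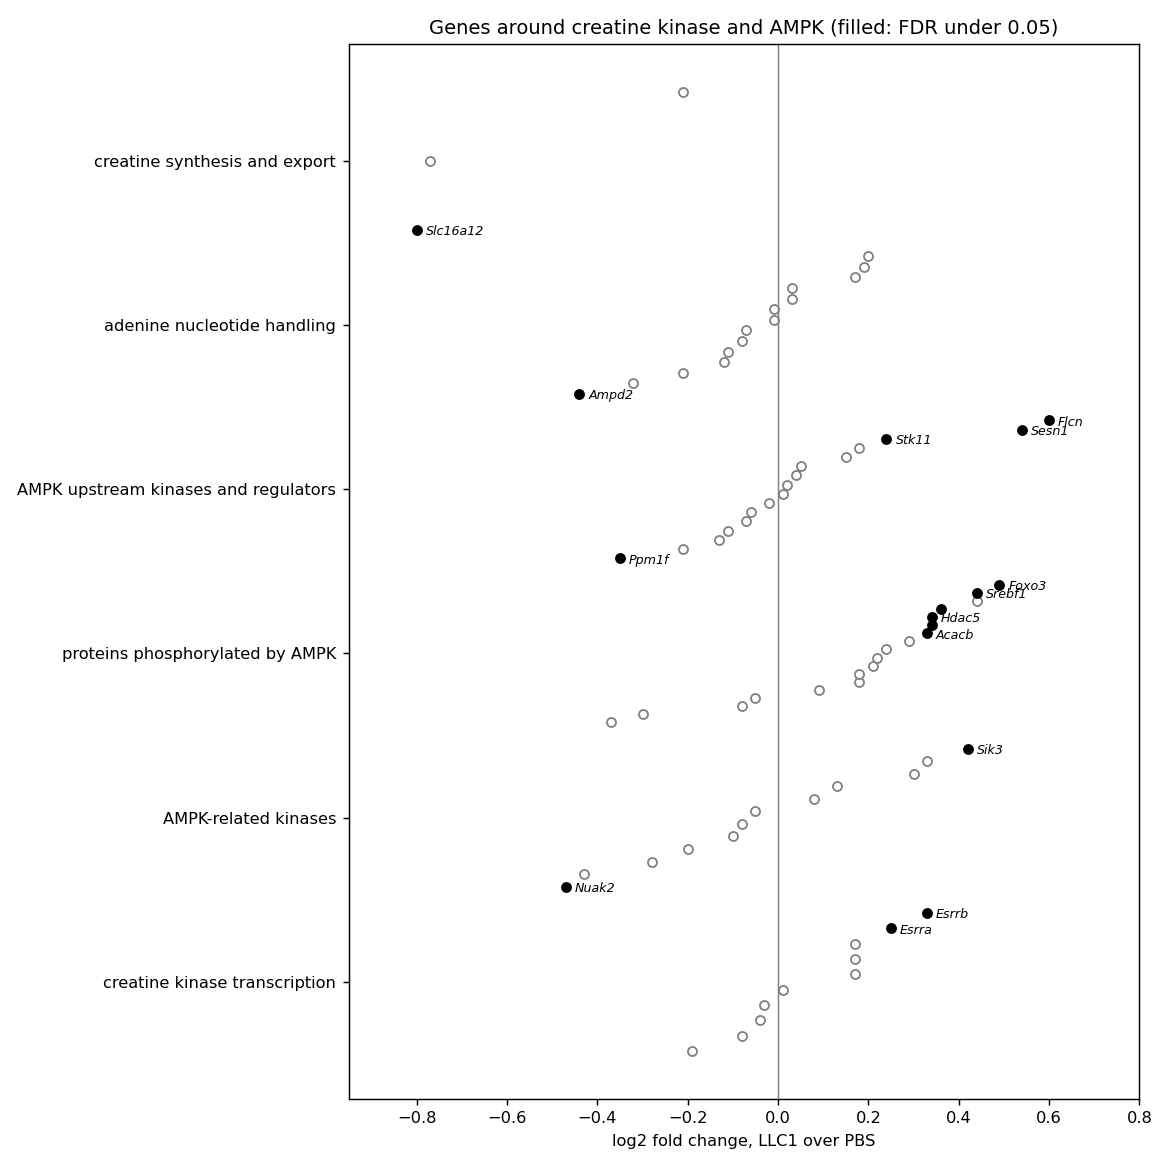
Log2 fold change, LLC1 over PBS, of the tested genes of 6 lists around creatine kinase and AMPK, 1 point per gene, filled where the edgeR FDR is under 0.05 and labelled where named in the text. In the list of proteins phosphorylated by AMPK 6 points are filled, all to the right of 0, and the filled points of the other lists lie on either side.

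Among the kinases related to AMPK, 12 of 13 were tested, 1 rose and 1 fell (median -0.07), beside the same 4.12% and 4.61% of all genes. Sik3, a salt-inducible kinase, was at 118 ± 6.29 CPM in LLC1 and 87.8 ± 7.71 CPM in PBS mice (SD, n = 4 each; log2 fold change 0.42, standard error 0.07, edgeR FDR = 0.00720). Nuak2 was at 4.47 ± 0.199 CPM and 6.22 ± 0.492 CPM (log2 fold change -0.47, standard error 0.12, edgeR FDR = 0.0279), and lost the call without any 1 of the 4 LLC1 mice, without PBS 1-3, or with a filter of at least 1 count in any mouse (FDR 0.0506 to 0.0768). Of 10 factors linked to creatine kinase transcription, 2 were called, both higher (median 0.09, beside 4.12% of all genes), both of them estrogen-related receptors, which drive genes of oxidative metabolism. The other such receptor of the list, Esrrg, had a log2 fold change of -0.04 (edgeR FDR = 0.864). Esrra was at 193 ± 10.9 CPM and 162 ± 7.18 CPM (log2 fold change 0.25, standard error 0.06, edgeR FDR = 0.0302). Esrrb was at 39.7 ± 4.65 CPM and 31.6 ± 1.57 CPM (log2 fold change 0.33, standard error 0.09, edgeR FDR = 0.0352). The log2 fold changes of Esrra and Esrrb were 0.20 and 0.28 with total counts and 0.14 and 0.22 with cardiomyocyte marker scaling. Over the fits that left out a mouse they ran from 0.22 to 0.28 and from 0.26 to 0.39. Both genes lost the call with total counts or cardiomyocyte marker scaling and without LLC1 1-3, LLC1 1-5, PBS 1-3 or PBS 2-1 (FDR 0.0679 to 0.106). Esrra also lost it without LLC1 1-2, and Esrrb without LLC1 2-2 or PBS 2-5 and with GC offsets (FDR 0.0578 to 0.119).

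The mice of a group also varied among themselves, and how far the 10 genes did so together depended on the scaling. After each mouse's log2 CPM was taken relative to its group mean, Pearson's r over the 8 mice between pairs of the 10 genes ran from -0.75 to 0.85 with a median of -0.08, and 19 of 45 pairs were positive. With libraries scaled to total counts, chosen after seeing the data, it ran from -0.69 to 0.79 with a median of 0.20, 29 of 45 pairs were positive, and 16 pairs changed sign. For each gene, the 3 genes most like it in this sense were picked from 11369 genes of at least 5 CPM. The most alike of Ckmt2 included Serf2 (r = 0.99) and Ftsj1 (0.96), those of Slc6a8 were Msl2, Kank2 and Hif1a (0.99 each), and those of Prkaa2 were 1700020I14Rik, Hipk3 and Ipo7 (0.99 each). Ckm was most like Tmem160, Mrm1 and Npm3, and Prkag1 most like Cd63, Vezt and Cuta (0.97 each). Ckb was most like G630090E17Rik (0.96), Soat1 and S100a11 (0.95 each). Prkaa1 was nearest to Akap11, Sorbs2os and Cggbp1 (0.98 each), Prkab1 to Tubgcp3 (0.97), Lsm11 and Sdc1 (0.96 each), Prkab2 to Hspb8, Snx5 and Dlg3 (0.98 each), and Prkag2 to Rybp (0.98), Lmbrd2 (0.96) and Ago2 (0.95). The points share the library of each mouse, and each list is the top of a very large choice. With total counts, 3 of 3 of these genes were picked again for Prkab2, 2 of 3 for Ckmt2, Slc6a8, Prkaa1, Prkaa2 and Prkab1, 1 of 3 for Ckb and Prkag2, and 0 of 3 for Ckm and Prkag1.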

How the data were processed

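RNA of 8 ventricles (4 LLC1 and 4 PBS mice) was sequenced by the authors as 150-base pairs from TruSeq RNA v2 libraries, a kit that does not mark strand. The submitters' processing notes name CASAVA, STAR, featureCounts and mm10. Versions, annotation and strand setting are not given in the sources used here. The authors deposited raw counts per gene, with a gene length, and these were used as deposited.

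Genes were kept by filterByExpr and tested with edgeR 4.0.16 (TMM factors, quasi-likelihood test, R 4.3.3) across all 16111 genes, with Benjamini-Hochberg FDR under 0.05 as a call. The standard error is the absolute log2 fold change over the square root of F. Single values were compared by exact permutation of 4 against 4 mice, and 5 within-mouse ratios by permutation with adjustment over the 5. The p-values measure the spread between these animals. Nothing in the labels says more of the mice than their group and code, so a shared cage or batch cannot be told apart from the injection. The groups share a single code and were compared as unpaired. Alternatives were DESeq2 1.42.0, limma-voom (limma 3.58.1), other scalings and filters, the first number of the code as a block, and each mouse left out. Length or GC offsets, and counts summed over antisense neighbours, were chosen after seeing the data. Overlaps and GC content used GENCODE M21 and similar transcripts BLAST 2.17.0. The edgeR steps were tested on simulated data.

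All 10 genes are named. From each of 7 pathway lists, the called genes are named (the 4 of lowest FDR where more were called, the 1 of lowest FDR where none was). For each of the 10, the 3 genes most alike it are named, except 1 that is not reported here. Gatm, Ckmt1, Esrrg and single markers were named after their values were seen. The 10 genes and all lists were chosen with earlier results of these data known.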

Additional observations from a re-analysis of the deposited data

How the results depend on the processing

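No log2 fold change of the 10 genes changed sign under any alternative run. Of the 10 genes, 3 had an FDR under 0.05, and this count was 2 or 3 in every alternative with all mice except total counts only, where it was 0 (with 4 at an unadjusted p under 0.05) and the FDR of Ckm was 0.0503 and that of Ckb 0.0535. In the main fit 6 of the 10 had an unadjusted p under 0.05, beside 25.5% of all genes tested. Total counts gave 0.24 for Ckm, -0.33 for Ckb and 0.22 for Prkag1. Cardiomyocyte marker scaling gave 0.18 for Ckm and 0.16 for Prkag1 without a call, and -0.28 for Prkaa1 with one. These scalings moved the median of all genes to -0.06 and -0.12. Relative to that median, Ckm was at 0.31 and 0.30, Prkag1 at 0.28 in both, and Ckb at -0.27 in both. Scaling moves all genes by nearly the same amount, so these values had to stay near those with TMM (0.30, 0.28 and -0.26). They do not test the calls. Under these scalings 225 and 222 genes were higher and 793 and 1813 lower, where TMM gave 663 and 743. GC offsets gave 0.24 for Ckm, and keeping all genes with at least 1 count gave -0.26 for Ckb, both without a call. DESeq2 called 1757 genes and edgeR 1406, and leaving out a mouse gave 542 (PBS 1-3) to 1949 (PBS 1-1).

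Leaving out each mouse gave 1 to 3 called genes among the 10, and log2 fold changes of 0.25 to 0.34 for Ckm, -0.32 to -0.25 for Ckb and 0.25 to 0.28 for Prkag1. The ratios then ran from -0.65 to -0.51 for Ckb to Ckm, -0.22 to -0.14 for Ckmt2 to Ckm, -0.08 to 0.02 for Prkaa1 to Prkaa2, 0.23 to 0.41 for Prkab1 to Prkab2 and 0.31 to 0.40 for Prkag1 to Prkag2. The calls of Ckb to Ckm, Ckmt2 to Ckm and Prkag1 to Prkag2 were each lost in 4 of 8 such fits, those without an LLC1 mouse, where fewer than 3 of the 5 ratios reached the smallest possible p and none could pass the adjustment. Differences of medians were -0.60, -0.20 and 0.35 for Ckb to Ckm, Ckmt2 to Ckm and Prkag1 to Prkag2, with an adjusted permutation p of 0.0952 in the exact test for each. The first number of the code as a block changed no call among the 10. No paired analysis was possible because the groups share fewer than 2 replicate codes. Counts were lowest for Prkaa1 and Prkag2, with 276 to 398 and 292 to 477 counts per mouse. The cause of these shifts was not tested.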
